A study of Drosophila melanogaster with 6 samples.

Results

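The peptide hormone genes of enteroendocrine cells were followed in RNA-seq libraries of progenitor cells sorted from the intestine of adult Drosophila melanogaster females. They were taken by symbol from the count table: Tk, NPF, AstA, AstC, Mip, CCHa1, CCHa2, Dh31, Orcokinin and ITP, which are 10 of its 17806 named genes. The libraries carried the genotype labels Patr1 and esgTS, with 3 replicates each. Every replicate was a pool of gastrointestinal tracts from 100 flies kept at 29 °C for 6 days, from which GFP-positive cells were sorted, so that the 6 libraries shared the sort, the sex and the temperature. In general use, esgTS names a system in which GFP and transgenes are driven from the escargot locus, active in stem cells and enteroblasts, with a temperature-sensitive repressor. The sources used here do not give how the Patr1 genotype alters the gene.

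Enteroendocrine cells are the hormone-secreting cells of the fly midgut and arise from the same stem cells as enterocytes. They cut active peptides out of larger precursor proteins, store them in dense-core granules and release them in response to nutrients and other signals. Subtypes are told apart by the peptides they make: cells of the AstC class and cells of the Tk class make up most of the population, and a further class makes Orcokinin. Most of these genes are also transcribed in neurons of the brain.

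Library totals ran from 2035676 to 2866705 reads in Patr1 and from 2627978 to 2958607 reads in esgTS. A count of 3 reads, taken as the floor of detection, was worth 0.997 to 1.51 CPM (reads of a gene scaled to a library of fixed size, with TMM factors), and all counting intervals below cover counting error only. Patr-1 encodes a P-body protein that promotes decapping, and its transcript was at 35.8, 32.5 and 39.3 CPM in Patr1 and at 207, 223 and 231 CPM in esgTS, so that the labelled gene was lower in all 3 Patr1 libraries. The sorted cells carried the progenitor gene esg at 645 ± 82.7 CPM in Patr1 and 657 ± 41.9 CPM in esgTS (SD, n = 3 each).

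Of the 10 hormone genes, 7 had enough reads to be tested, and 4 of these passed an adjusted p of 0.05 (edgeR quasi-likelihood test, Benjamini-Hochberg over 7927 genes). ITP, AstA and CCHa1 were higher in Patr1 and Orcokinin was lower, whereas AstC, NPF and Tk did not pass. The test called 49.4% of all genes tested, 25.5% as higher and 23.9% as lower in Patr1, so that 4 of 7 is close to the share over all genes. The median log2 fold change of the 7 tested members was -0.13, against 0.01 over all genes tested. The libraries of the genotypes did not overlap for 3 of the 7 (AstA, Orcokinin and ITP), where 57.3% of all genes tested did not overlap. Without the filter on low counts 7 of the 10 passed, among 33.6% of all genes, and Tk and AstC, whose libraries overlap, were then called lower.

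**Figure D1:**
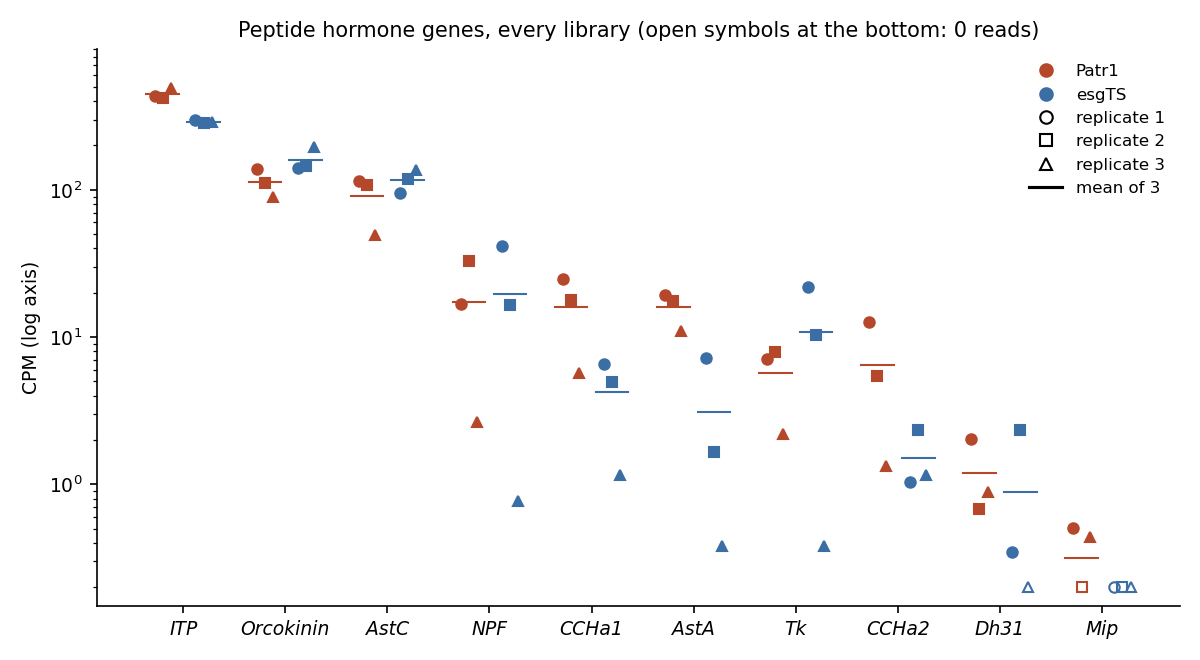
CPM of each peptide hormone gene (log axis) in every library, Patr1 in red to the left of esgTS in blue, with a symbol per replicate and a line at the mean of the 3 replicates. ITP, Orcokinin and AstC lay near or above 50 CPM in every library, while NPF, CCHa1 and Tk spread 3.57-fold to 56.8-fold within a genotype and AstA spread 1.74-fold in Patr1 and 18.9-fold in esgTS, each with replicate 3 lowest in both.

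The 3 most abundant hormone transcripts moved apart. ITP encodes ion transport peptide, an antidiuretic hormone of the crustacean hyperglycaemic hormone family. It stood at 430.5, 421 and 490.4 CPM in Patr1 replicates 1, 2 and 3, and at 297, 283 and 286 CPM in the esgTS replicates. All Patr1 libraries lay above all esgTS libraries, and the esgTS values differed little among themselves. The means were 447 ± 37.6 CPM in Patr1 and 289 ± 7.56 CPM in esgTS (SD, n = 3 each), a 1.55-fold rise (log2 0.63 ± 0.08 SE, edgeR adjusted p = 6.61e-05). In a bulk sample, more or fewer cells of a type and more or less RNA per cell cannot be told apart, which holds for every level given here.

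Orcokinin, whose peptides mark a class of enteroendocrine cells, went the other way. Its level was 139.3, 110.6 and 89.6 CPM in Patr1, against 139.8, 144.8 and 194.2 CPM in esgTS. The genotypes were separate, but only just, since the highest Patr1 library and the lowest esgTS library were almost equal. The means were 113 ± 24.9 CPM in Patr1 and 159.6 ± 30.1 CPM in esgTS (SD, n = 3 each), a 1.41-fold fall (log2 -0.50 ± 0.15 SE, edgeR adjusted p = 0.0170). That call was lost without Patr1 replicate 2 (edgeR adjusted p = 0.0684), Patr1 replicate 3 (0.0690) or esgTS replicate 3 (0.0748), and the log2 fold change without replicate 3 of both genotypes was -0.19 (edgeR adjusted p = 0.201).

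AstC, the allatostatin C gene, gives its name to the other large class of gut hormone cells, and its peptide is known to act on energy stores. Its transcript was at 115.1, 108.5 and 49.4 CPM in Patr1, against 94.6, 118 and 136 CPM in esgTS. Patr1 replicate 3 held less than every other library, and the remaining Patr1 libraries lay within the esgTS range. The means were 91.0 ± 36.1 CPM in Patr1 and 116 ± 20.6 CPM in esgTS (SD, n = 3 each), and the difference did not pass (log2 -0.34 ± 0.23 SE, edgeR adjusted p = 0.233). Without replicate 3 of both genotypes the sign turned (log2 0.078, edgeR adjusted p = 0.627).

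Tk and NPF, which are among the hormones of the Tk class of cells, varied more within a genotype than between genotypes. Tk encodes the tachykinins, which in the gut act on enterocyte lipid metabolism, and NPF encodes neuropeptide F, which the gut releases after feeding and mating. Tk was at 7.07, 7.87 and 2.21 CPM in Patr1, against 21.7, 10.3 and 0.383 CPM in esgTS. NPF was at 16.7, 32.9 and 2.65 CPM in Patr1, against 41.4, 16.6 and 0.766 CPM in esgTS. For both genes the lowest library of each genotype was replicate 3, and the genotypes overlapped fully.

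The spread of these genes within esgTS was 56.8-fold for Tk and 54.1-fold for NPF between the highest and the lowest library. In Patr1 it was 3.57-fold for Tk and 12.4-fold for NPF. Counting error does not cover the esgTS range: the exact 95% binomial interval of Tk was 16.7 to 27.8 CPM in esgTS replicate 1 (63 reads) and 0.0097 to 2.13 CPM in esgTS replicate 3 (1 read). The reads of NPF per read of Tk were 2.36, 4.17 and 1.20 in Patr1, against 1.90, 1.61 and 2.00 in esgTS, where the ratio of replicate 3 rests on 2 reads of NPF and 1 of Tk. Neither gene passed the test (Tk log2 -0.91 ± 0.73 SE, edgeR adjusted p = 0.319, and NPF log2 -0.13 ± 0.76 SE, edgeR adjusted p = 0.902).

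Single libraries set what these fits gave. Without esgTS replicate 3, Tk passed as lower in Patr1 (log2 -1.45, edgeR adjusted p = 0.0189), without replicate 3 of both genotypes it also passed (log2 -1.07, edgeR adjusted p = 0.0389), and without esgTS replicate 1 its sign turned (log2 0.056, edgeR adjusted p = 0.959). NPF was at log2 0.36 without Patr1 replicate 3 and at 0.99 without esgTS replicate 1, and it passed in neither (edgeR adjusted p = 0.703 and 0.355).

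AstA and CCHa1 were higher in Patr1. AstA encodes allatostatin A, a peptide that curbs feeding and is made in the brain and the posterior midgut. It was at 19.2, 17.5 and 11.03 CPM in Patr1, against 7.25, 1.66 and 0.383 CPM in esgTS, which did not overlap. The group totals were 114 and 27 reads, a 4.97-fold fitted rise (log2 2.31 ± 0.54 SE, edgeR adjusted p = 0.00358). That call was kept in each of 13 alternative analyses, with log2 fold changes of 1.84 to 3.84, the highest without esgTS replicate 1.

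CCHa1 encodes a CCHamide hormone that gut cells release in response to dietary protein. It was at 24.7, 17.8 and 5.74 CPM in Patr1, against 6.56, 4.98 and 1.15 CPM in esgTS. Patr1 replicate 3 lay within the esgTS range, so the genotypes overlapped, and replicates 1 and 2 of Patr1 stood above all esgTS libraries. The totals were 114 and 37 reads, and the log2 fold change was 1.88 ± 0.53 SE (3.68-fold, edgeR adjusted p = 0.0107), and it passed in each of 13 alternatives, with adjusted p-values of 3.28e-08 to 0.048.

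Its relative CCHa2, a nutrient-dependent hormone that acts on insulin-producing cells, had too few reads for the expression filter. Its level was 12.6, 5.48 and 1.32 CPM in Patr1, against 1.04, 2.33 and 1.15 CPM in esgTS. Patr1 replicates 1 and 2 stood above all esgTS libraries, and Patr1 replicate 3 was inside their range. The totals were 44 reads in Patr1 and 13 in esgTS, or 4.02 times as many after scaling (exact 95% counting interval 2.13 to 8.14). Where an alternative kept the gene in, its log2 fold change was 1.79 to 2.47 and it passed in 5 of 7. It passed with DESeq2 (adjusted p = 0.0293, where DESeq2 called 29.1% of all genes), but not without esgTS replicate 1 or 3 (edgeR adjusted p = 0.0810 and 0.0640). The fits with libraries left out kept the gene only where Patr1 replicates 1 and 2, its highest libraries, both stayed in. The count of passes thus depends in part on that level, and no support is drawn from it.

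Dh31 and Mip were at or near the floor. Dh31, the calcitonin-like diuretic hormone gene that drives gut contraction, had 4, 2 and 2 reads in Patr1, against 1, 7 and 0 in esgTS. That is 8 reads in each genotype, a ratio of 1.19 with an exact 95% counting interval of 0.389 to 3.63. Mip, which encodes myoinhibiting peptides, had 1, 0 and 1 reads in Patr1 and 0 in all 3 esgTS libraries, where the floor of 3 reads was 1.04, 0.997 and 1.15 CPM. Both groups were under the floor, so no fold was computed for Mip.

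**Figure D2:**
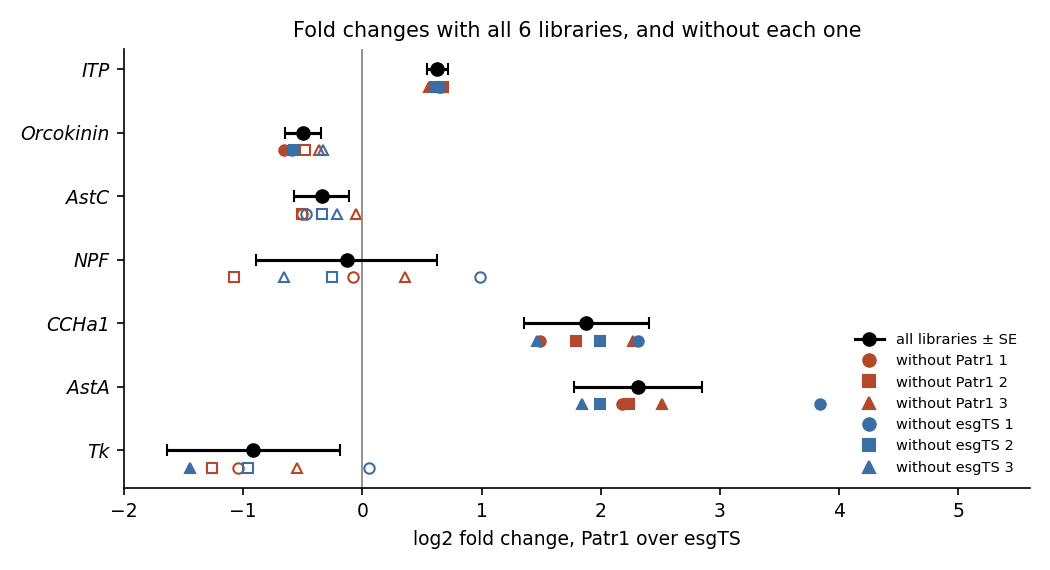
Log2 fold change of the 7 tested peptide hormone genes, Patr1 over esgTS, with all libraries (black, bars are standard errors) and, below each, with 1 library left out (Patr1 in red, esgTS in blue; filled where the edgeR adjusted p was under 0.05). ITP, CCHa1 and AstA stayed above 0 and filled throughout, Orcokinin lost its call without any of 3 libraries, and NPF and Tk crossed 0.

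Replicate 3 was the lowest library of both genotypes for 4 members, Tk, NPF, AstA and CCHa1. Over all genes tested, 11.1% had replicate 3 lowest in both. Within Patr1 it was lowest for 7 members, CCHa2 with 3 reads among them, and within esgTS for 5, Dh31 with 0 reads among them. The shares over all genes were not computed within a single genotype, so nothing is drawn from these counts. The 5 sparse hormone genes that had at least 1 read in every library, Tk, NPF, AstA, CCHa1 and CCHa2, summed to 80.2, 81.5 and 23.0 CPM in Patr1, against 78.0, 35.9 and 3.83 CPM in esgTS. Libraries of the same number were not otherwise alike across genes, and the sources used here do not give whether a number stands for a shared day or sort.

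The biological coefficient of variation of Tk, NPF, AstA and CCHa1 was high among all genes tested, which were not matched for level. It was 72.7% for NPF, 62.2% for Tk, 40.0% for CCHa1 and 39.0% for AstA, against a median of 8.39% over all genes tested. Of all genes tested, 99.6% varied less than AstA, and 99.9% varied less than Tk or NPF. AstC was at 19.6%, Orcokinin at 12.5% and ITP at 7.26%, the only tested member below the median.

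Levels between genes were compared per length, as RPKM, the CPM divided by the deposited gene length in kilobases. In Patr1, ITP was highest at 95.5 ± 8.03 RPKM, then Orcokinin at 75.9 ± 16.7 and AstC at 75.7 ± 30.1. In esgTS, Orcokinin came first at 107 ± 20.2 RPKM, then AstC at 96.4 ± 17.1 and ITP at 61.7 ± 1.61 (SD, n = 3 each). ITP thus led the order in Patr1 and stood below Orcokinin and AstC in esgTS. These means exceeded those of 83.1% to 88.5% of tested genes in Patr1 and 78.1% to 91.2% in esgTS.

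NPF was the fourth in both genotypes, at 29.0 ± 25.2 RPKM in Patr1 and 32.7 ± 34.2 RPKM in esgTS (SD, n = 3 each). Below it in Patr1 came CCHa1 (18.8 RPKM), AstA (10.9), CCHa2 (4.44), Tk (3.53), Dh31 (0.923) and Mip (0.226). In esgTS the order was Tk (6.67 RPKM), CCHa1 (4.94), AstA (2.12), CCHa2 (1.03), Dh31 (0.687) and Mip (0). Most neighbours in these orders overlapped in range: only Dh31 over Mip in Patr1 and AstC over ITP in esgTS were separate. The separation of Dh31 from Mip rests on 4, 2 and 2 reads against 1, 0 and 1, and their counting intervals overlap.

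Summed over the 10 genes, hormone transcripts made up 714.5 ± 57.3 CPM in Patr1 and 604.6 ± 18.8 CPM in esgTS (SD, n = 3 each), a description with no test. The libraries held 768, 722 and 654 CPM in Patr1, against 610.2, 584 and 620.04 CPM in esgTS, with no overlap. ITP alone gave 56.1%, 58.3% and 75.0% of the hormone reads in the Patr1 libraries and 48.8%, 48.5% and 46.2% in the esgTS libraries. Without ITP the order of the means turned, with 267 CPM in Patr1 and 315.6 CPM in esgTS, and Patr1 replicate 3 (163 CPM) stood below the other 5 libraries (301 to 337 CPM).

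**Figure D3:**
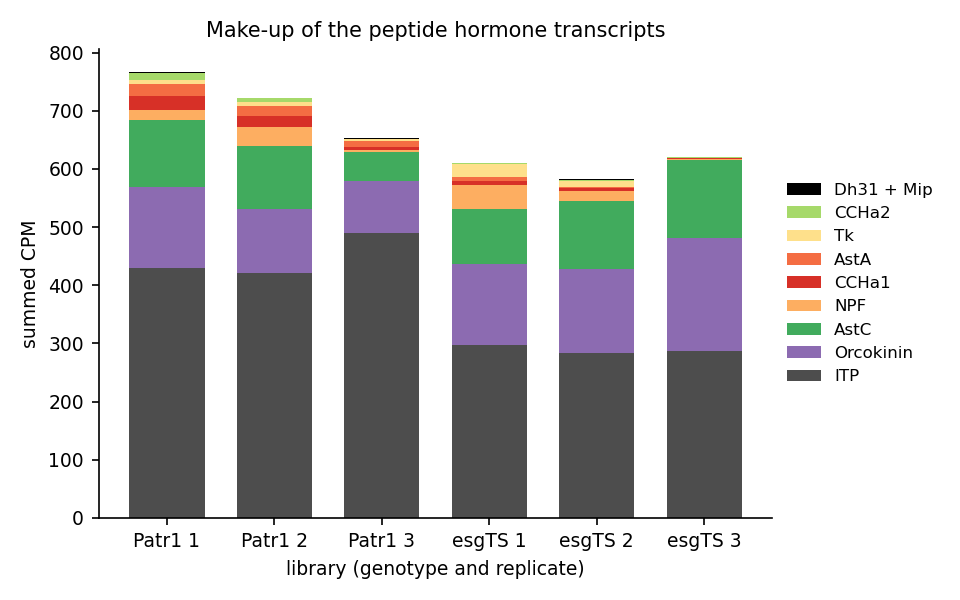
CPM of the 10 peptide hormone genes stacked per library, Patr1 to the left of esgTS. The dark ITP block was larger in each Patr1 library than in any esgTS library, and the thin upper blocks of the sparse genes were smallest in replicate 3 of both genotypes, at 23.0 CPM in Patr1 and 3.83 CPM in esgTS.

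Genes that act with the hormones were split in direction. Over 5 lists (receptors, prohormone processing, peptide granules, enteroendocrine identity and other peptide hormones), 29 genes were tested, of which 10 were higher and 9 lower in Patr1, where 25.5% and 23.9% of all genes tested were. Of the 12 receptor genes of these hormones, 3 were tested, 1 rose, 1 fell and 1 did not pass. SPR, the receptor of sex peptide and of the Mip peptides, was at 18.2, 12.0 and 5.74 CPM in Patr1, against 0.345, 0 and 0.383 CPM in esgTS. The totals were 84 reads and 2 reads, and Patr1 over esgTS came to 49.9 after scaling (exact 95% counting interval 13.4 to 419, edgeR adjusted p = 4.32e-05), while reads of its ligand gene Mip stayed under the floor in both genotypes. CCHa1-R, the receptor of CCHa1, fell 2.69-fold to 2.65 ± 1.17 CPM in Patr1, against 7.23 ± 2.57 CPM in esgTS (SD, n = 3 each, edgeR adjusted p = 0.0142), a call lost with DESeq2 (adjusted p = 0.0541) and without replicate 3 of either genotype (edgeR adjusted p = 0.0575 without that of Patr1, 0.0571 without that of esgTS).

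Among 10 genes that cut, trim or amidate prohormones, 9 were tested, 2 rose and 4 fell. The furin protease genes moved apart: Fur1 rose 2.08-fold to 19.3 ± 0.835 CPM in Patr1, against 9.23 ± 1.16 CPM in esgTS (edgeR adjusted p = 0.00137), and Fur2 fell 1.86-fold to 106 ± 11.1 CPM in Patr1, against 198 ± 6.38 CPM in esgTS (edgeR adjusted p = 4.88e-06; SD, n = 3 each). isoQC, a glutaminyl cyclase gene, was at 19.3 ± 3.52 CPM in Patr1 and 10.6 ± 2.71 CPM in esgTS (edgeR adjusted p = 0.0110), a call lost without Patr1 replicate 2 (edgeR adjusted p = 0.0666). 7B2, whose protein helps the convertase amontillado to mature, was at 3.50 ± 1.80 CPM in Patr1 and 7.06 ± 0.556 CPM in esgTS (edgeR adjusted p = 0.0305), but lost its call in 7 of 13 alternatives. The other falls were in svr (lost in 7 of 13) and Pal2 (lost in 8 of 13), and the convertase gene amon itself did not pass (edgeR adjusted p = 0.209). Its level was 34.3, 32.5 and 15.01 CPM in Patr1, against 26.2, 37.2 and 47.5 CPM in esgTS. Within Patr1, amon, 7B2, svr, Fur1, isoQC and the untested QC were lowest in replicate 3, whereas Phm, Pal1, Pal2 and Fur2 were not. The share over all genes was not computed.

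Of 8 granule and release genes, 6 were tested, 2 rose and 1 fell. Syt4, a synaptotagmin gene, was at 56.8 ± 6.01 CPM in Patr1 and 1.04 ± 0.672 CPM in esgTS (log2 5.69 ± 0.28 SE, edgeR adjusted p = 1.32e-08). Sytalpha, another synaptotagmin gene, was at 33.8, 18.5 and 8.39 CPM in Patr1, against 6.56, 6.64 and 7.28 CPM in esgTS (edgeR adjusted p = 0.00806). nSyb, the neuronal vesicle fusion gene, was lower at 4.80 ± 1.16 CPM in Patr1 and 8.71 ± 1.02 CPM in esgTS (edgeR adjusted p = 0.0358), a call lost in 9 of 13 alternatives. The granule membrane gene IA-2 did not pass (edgeR adjusted p = 0.585). Its level was 123, 97.6 and 30.02 CPM in Patr1, against 110.1, 92.3 and 88.1 CPM in esgTS. Patr1 replicate 3 was its lowest library. Within Patr1, every gene of the list except Syt4 was lowest in replicate 3. The share of all genes lowest in Patr1 replicate 3 was not computed.

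Transcription factors listed for a part in enteroendocrine fate, without regard to the direction in which each acts, moved both ways. Of 7 tested among 11 listed, 4 rose and 2 fell. The proneural gene sc rose 2.76-fold to 98.9 ± 7.77 CPM in Patr1, against 35.8 ± 3.52 CPM in esgTS (edgeR adjusted p = 5.33e-07). dimm, which drives a peptide-secreting state, was at 21.2, 22.2 and 15.4 CPM in Patr1, against 2.07, 1.99 and 6.13 CPM in esgTS (log2 2.56 ± 0.37 SE, edgeR adjusted p = 1.17e-04), and its log2 fold change without esgTS replicate 3 was 3.25. tap fell to 6.82 ± 0.901 CPM in Patr1, against 14.0 ± 2.30 CPM in esgTS (edgeR adjusted p = 0.00539), and Ptx1 fell to 166 ± 7.35 CPM in Patr1, against 209 ± 16.9 CPM in esgTS (edgeR adjusted p = 0.00605; SD, n = 3 each). The defining factor pros was at 49.0, 45.5 and 40.6 CPM in Patr1, against 40.4, 34.9 and 49.4 CPM in esgTS (edgeR adjusted p = 0.515). Its replicate 3 was lowest in Patr1 and highest in esgTS. Within Patr1, sc and dimm were also lowest in replicate 3, whereas Ptx1 and ttk were highest there. The other rises were in ttk (lost in 5 of 13 alternatives) and mirr (lost in 9 of 12), and the number of rises was 2 without Patr1 replicate 2 or 3 or esgTS replicate 1 or 3. The list summed to 828 to 873 CPM in Patr1 and 663 to 777 CPM in esgTS, most of it ttk, and none of its genes was at 0 in all libraries. The sum was therefore not read as a level of enteroendocrine identity.

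Most hormone genes beyond the 10 had too few reads to be tested. Of 38 found in the table, 34 were not tested, 12 of them with 0 reads in every library, and 4 were tested. Ptth, the prothoracicotropic hormone gene, was at 0.505, 1.03 and 0.441 CPM in Patr1, against 15.5, 14.9 and 16.5 CPM in esgTS (log2 -4.40 ± 0.38 SE, edgeR adjusted p = 1.77e-06). Ilp6, an insulin-like peptide gene, was at 12.6, 14.4 and 9.71 CPM in Patr1, against 3.11, 2.99 and 3.06 CPM in esgTS (log2 2.00 ± 0.30 SE, edgeR adjusted p = 1.65e-04). The tested amn, at 98.7 ± 31.8 CPM in Patr1 and 128.7 ± 37.2 CPM in esgTS (SD, n = 3 each), and Nplp2 did not pass (edgeR adjusted p = 0.140 and 0.782).

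**Figure D4:**
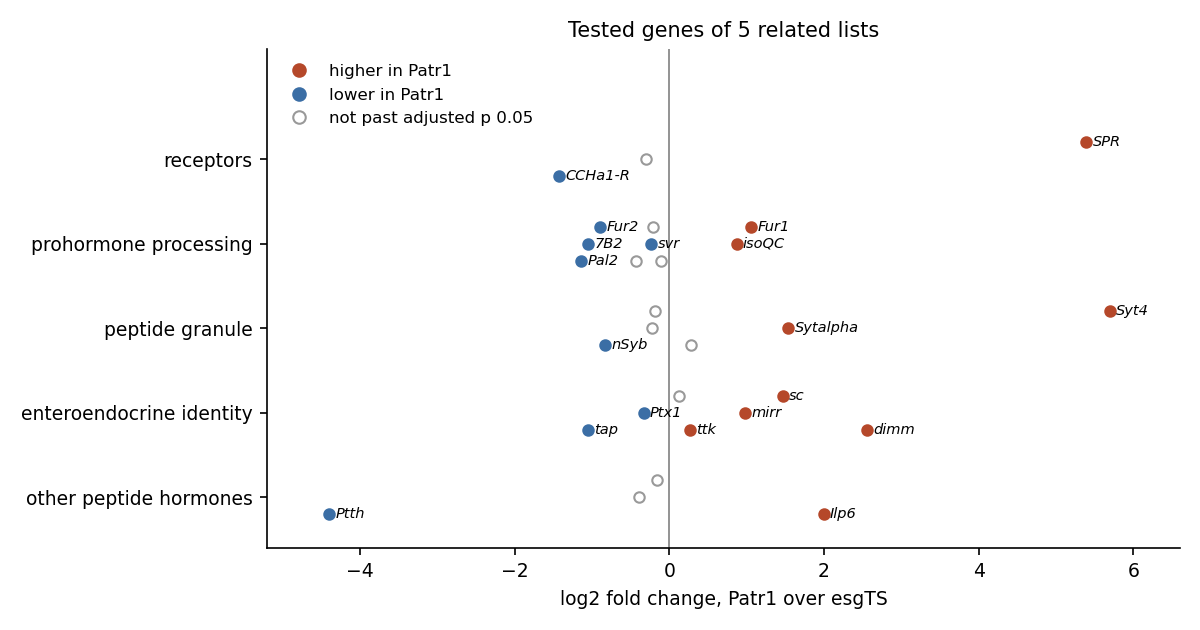
Log2 fold change (Patr1 over esgTS) of every tested gene in 5 lists related to the hormones, coloured where the edgeR adjusted p was under 0.05 (red higher, blue lower in Patr1) and open where it was not. Each list held genes on both sides of 0, with Syt4 and SPR farthest to the right and Ptth farthest to the left.

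Markers of other cell types also differed between the genotypes, where 25.5% of all genes tested were higher and 23.9% lower in Patr1. Of 8 neuronal genes, 6 were tested, 2 rose and 2 fell: onecut was at 29.0 ± 7.31 CPM in Patr1 and 3.16 ± 0.850 CPM in esgTS (edgeR adjusted p = 3.20e-06), and elav at 91.7 ± 4.88 CPM in Patr1 and 149.9 ± 14.8 CPM in esgTS (edgeR adjusted p = 5.27e-05; SD, n = 3 each). The vesicle gene nSyb, given above with the granule genes, is counted among these as well. The neuronal list summed to 192 to 238 CPM in Patr1 and 226 to 259 CPM in esgTS. Of 10 enterocyte genes 9 rose and 1 fell, with sums of 1666 to 1686 CPM in Patr1 and 865 to 956 CPM in esgTS, led by bbg and Myo61F. Of 8 muscle genes, 6 were tested, 3 rose (bt and Zasp52 among them) and 1 fell. Mhc and Mlc2 did not pass (edgeR adjusted p = 0.469 and 0.874). The list summed to 418 to 509 CPM in Patr1 and 258 to 284 CPM in esgTS. Zasp52, its most abundant gene in Patr1, was at 253 ± 34.9 CPM in Patr1 and 100 ± 1.15 CPM in esgTS (SD, n = 3 each). Of 7 progenitor genes 3 rose and 3 fell (zfh2 and klu among them), with sums of 4912 to 5741 CPM in Patr1 and 5417 to 5914 CPM in esgTS. No listed marker of these types was at 0 in all libraries, and the part of such cells in the hormone levels was not tested.

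The profiles of ITP, Tk and AstC over the 6 libraries were set against 7521 genes by root mean square distance of centred log2 CPM. The hormone genes were left out of that search, so Tk was not compared with NPF. Nearest to ITP were Gen, a DNA junction nuclease gene (0.0141), ttm50, for a mitochondrial import subunit (0.0318), and Sgt, for a chaperone partner (0.0340), where ITP itself had an SD of 0.352 on that scale. All 3 were higher in Patr1 (log2 0.66, 0.67 and 0.58; edgeR adjusted p = 0.00338, 2.23e-05 and 1.55e-04). Tk had no near match among the 7521 genes. Ance, a peptidase gene, lay at 0.931, ste14 at 0.942 and side-VI at 0.984, against an SD of 1.52 for Tk. AstC was closest to 3 small RNAs, scaRNA:MeU5-U42 (0.0742), snoRNA:Psi18S-841d (0.0917) and another snoRNA (0.0960), against its SD of 0.513. The 6 points share their libraries and depths, and no relation is drawn from such closeness.

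In the authors' deposited table, 9 of the 10 genes were listed and 4 had an adjusted p under 0.05, where 33.7% of all genes listed did. The authors' deposited table gave ITP a log2 fold change of 0.61 (adjusted p = 2.07e-08), Orcokinin -0.52 (0.00822), CCHa2 2.06 (0.0188) and AstA 2.34 (0.0488). CCHa1 was at 1.91 there, with an adjusted p of 0.0638 in the authors' deposited table, so its call differs from that of the edgeR test. For AstA the standard error in the authors' deposited table was 0.97, and the DESeq2 run on the deposited counts gave 0.56.

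The hormone genes lay on chromosome arms 3R (Tk, NPF, AstA, CCHa1 and CCHa2), 2L (AstC and Dh31), 3L (Mip) and 2R (Orcokinin and ITP) in the BDGP6 annotation. Exon bases were shared with another gene only for ITP, 6.32% of whose exon bases lie in CG4622 on the opposite strand. ITP has 5 annotated transcripts, Orcokinin, NPF and CCHa2 have 3, and counts per gene do not separate the peptide forms they encode.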

How the data were processed

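RNA was sequenced from GFP-positive intestinal progenitors, 3 Patr1 and 3 esgTS libraries, with rRNA depletion (Ovation SoLo), per the labels' protocols. Tools in the submitters' processing notes are STAR 2.7.3a, Subread 2.0.0, featureCounts, cutadapt 2.9, DESeq2 and SAMtools 1.10. The sources used here do not give build, annotation or strand setting, and no coordinates are printed. Per the file headers, the deposited table has the raw read count of each gene and its length. The authors' table of fold changes, also per the file headers, has a normalized signal for each library, log2 fold changes, a Wald score and p-values, raw and adjusted. Tests here ran on the deposited counts alone.

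Tests used edgeR 4.0.16 in R 4.3.3 (TMM, default expression filter by genotype, glmQLFit, Benjamini-Hochberg over all genes tested), checked on simulated data. The simulation gave every gene the common dispersion, so it does not cover genes as variable as Tk, NPF, AstA and CCHa1. It also changed a far smaller share of genes than the 49.4% called in the data, so change that widespread was not checked. DESeq2 1.42.0 was an alternative. A row without a gene name took 0.00226% to 0.00296% of reads in Patr1 and at most 3.38e-05% in esgTS, and was left out. Deposited lengths equalled the exon bases of the BDGP6 annotation for 99.2% of 17018 shared symbols, all 10 hormone genes included. Intervals are exact (Clopper-Pearson for levels, conditional Poisson for ratios). Likeness used log2 CPM with a prior count of 2 and genes of at least 5 CPM, without the hormone genes.

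Members and lists were chosen with earlier results of these data known. Of 112 distinct symbols listed beside the members, 111 were matched; nSyb stood in both the granule and the neuron list. Named genes were the members, Patr-1, up to 4 called genes with the smallest p per related list and up to 2 per marker list. The 3 nearest profiles of Tk, AstC and ITP were named as well. After their values were seen, pros, esg, amon, IA-2, svr, Pal2, ttk, mirr, amn, Nplp2, Phm, Pal1, QC, Mhc and Mlc2 were added. Replicate pairs within a genotype had a chi-square of 2.45 to 4.34 per degree of freedom, above sampling noise. Each is a pool of flies, and the p-values measure the spread between such pools.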

Additional observations from a re-analysis of the deposited data

Results flagged for a closer look

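The row with no gene name, which entered no comparison, held 46, 81 and 70 reads in Patr1 replicates 1, 2 and 3 and 0, 1 and 0 reads in the esgTS replicates. It was picked out because a signal stood there in Patr1 above its level in esgTS, in data outside the tests. The sources used here do not give its gene.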

How the results depend on the processing

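The numbers of hormone genes called higher (3) and lower (1) were the same with DESeq2 size factors, upper-quartile factors and a minimum mean of 5 CPM. DESeq2 called 4 higher and 1 lower (29.1% of genes called), and the fit without a filter called 4 higher and 3 lower (33.6%), adding CCHa2, Tk (edgeR adjusted p = 0.0154) and AstC (0.00334); the cause was not tested. ITP, AstA and CCHa1 kept their direction and call in all 13 alternatives. Leaving out 1 library gave 3 to 4 hormone genes higher and 0 to 1 lower, with CCHa2 counted only where the filter kept it. Related genes then numbered 7 to 10 higher and 4 to 9 lower. Those lower also numbered 4 with DESeq2 and 4 without replicate 3 of both genotypes, an alternative chosen after seeing the data. The summed hormone level without ITP was 267 CPM in Patr1 and 315.6 CPM in esgTS.

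With 1 library left out, the log2 fold change of Tk ran from -1.45 (without esgTS replicate 3, where it passed) to 0.056 (without esgTS replicate 1), and that of NPF from -1.08 (without Patr1 replicate 2) to 0.99 (without esgTS replicate 1). Among the genes of like profile, ste14 ran from -0.25 to 0.50 and side-VI from -0.041 to 0.85, with no call, while Ance ran from -1.36 to -0.40 and was called lower without Patr1 replicate 1 or esgTS replicate 3, with the replicate block and without the filter (edgeR adjusted p = 0.0481, 0.0130, 0.0462 and 0.0102). Without replicate 3 of both genotypes the sign turned for AstC (0.078), ste14 (-0.023), scaRNA:MeU5-U42 (0.17) and snoRNA:Psi18S-841d (0.082), again with no call, whereas Tk (-1.07) and Ance (-1.22) were called lower. The cause was not tested.

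Same-numbered libraries of the genotypes deviated together weakly (correlations of 0.052, 0.20 and -0.04 for numbers 1, 2 and 3), so the numbers were not taken to pair them. With the replicate block, 3 hormone genes were higher and 1 lower, and 9 related genes were higher and 7 lower, against 10 and 9 without it; over all genes the block gave 1999 higher and 1902 lower, against 2018 and 1896. Depth limits the sparse genes: 3 reads were 0.997 to 1.51 CPM, and the expression filter left out Mip, Dh31 and CCHa2; CCHa2 was at or above 3 reads in every library.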
